A study of Homo sapiens with 12 samples.

Results

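The 10 genes described here encode the DNA methyltransferases DNMT1, DNMT3A and DNMT3B, the methylation reader UHRF1, the 5-methylcytosine oxidases TET1 and TET2, and the PRC2 proteins EZH1, EZH2, EED and SUZ12. They were chosen by symbol, with earlier results of these data known, and all 10 were present among the 28008 genes listed for the MUC1-C silencing experiment and among the 25435 listed for the MUC1-C overexpression experiment. All 10 passed the filter on low counts in both. In the silencing experiment, LNCaP-ER/tet-MUC1shRNA cells, a prostate cancer line grown under enzalutamide until it was resistant, carried a DOX-inducible MUC1 shRNA. They received 0.1% DMSO as vehicle or 500 ng/mL DOX for 7 days, so that both groups shared the resistant background and the shRNA vector. No group here combined DOX with a control shRNA, so an effect of DOX itself cannot be told apart from that of the shRNA. In the overexpression experiment, the control was cells labelled LNCaP with the treatment label wild-type, whose columns are named vector. The other group was cells labelled LNCaP/MUC1-C OE, whose sample titles carry the prefix shMUC1-C OE. Per the study's methods, they expressed MUC1-C from a CMV-driven vector. Each of the 4 groups had 3 libraries from cells cultured in triplicate, and p-values measure the spread between such cultures only. One shRNA sequence was used, and whether the lines were clones or pools was not given in the sources used here.

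DNA methylation is set at new sites by DNMT3A and DNMT3B and copied at replication by DNMT1, which UHRF1 brings to hemimethylated DNA. TET1 and TET2 oxidise 5-methylcytosine, a step towards its removal. PRC2 methylates lysine 27 of histone H3 through EZH2 or its paralog EZH1, with EED and SUZ12 as the other core subunits, and EZH2 is known for its high level in advanced prostate cancer.

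The bases in front of the start sites of 4 of these genes are shown, since EZH2, SUZ12 and TET1 are genes on which the results below turn in both experiments, and UHRF1 in one of them. Each is the 250 bases before a RefSeq start on GRCh38.p14, 5′ to 3′ on the strand of the gene, in lower case, with matches to E2F-type letters in capitals (TTTCCCGC, TTTCGCGC, TTTGCCGC or TTTGGCGC, on either strand, overlaps counted once) or to the E-box CACGTG. The windows are EZH2 (chr7:148884292-148884541, minus strand), SUZ12 (chr17:31936757-31937006, plus strand), UHRF1 (chr19:4909251-4909500, plus strand) and TET1 (chr10:68560087-68560336, plus strand).
EZH2: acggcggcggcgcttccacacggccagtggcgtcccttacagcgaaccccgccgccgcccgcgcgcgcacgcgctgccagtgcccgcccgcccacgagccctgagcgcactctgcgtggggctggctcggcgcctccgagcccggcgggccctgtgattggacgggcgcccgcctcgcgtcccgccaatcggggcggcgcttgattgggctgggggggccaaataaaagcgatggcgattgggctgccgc
SUZ12: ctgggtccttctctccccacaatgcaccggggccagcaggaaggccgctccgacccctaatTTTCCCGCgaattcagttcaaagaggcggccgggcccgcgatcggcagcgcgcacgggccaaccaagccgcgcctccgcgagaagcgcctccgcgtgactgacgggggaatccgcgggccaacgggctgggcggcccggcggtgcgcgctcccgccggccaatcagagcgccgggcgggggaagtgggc
UHRF1: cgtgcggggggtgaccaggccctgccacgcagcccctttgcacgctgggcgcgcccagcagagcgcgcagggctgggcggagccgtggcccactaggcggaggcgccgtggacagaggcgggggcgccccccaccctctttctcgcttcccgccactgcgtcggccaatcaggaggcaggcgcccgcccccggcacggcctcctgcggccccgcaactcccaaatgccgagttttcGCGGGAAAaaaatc
TET1: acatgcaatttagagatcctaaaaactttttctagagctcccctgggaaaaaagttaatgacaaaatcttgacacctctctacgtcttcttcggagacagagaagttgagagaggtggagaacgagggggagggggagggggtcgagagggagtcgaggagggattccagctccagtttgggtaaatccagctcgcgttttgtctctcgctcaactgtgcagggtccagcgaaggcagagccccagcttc

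The EZH2, SUZ12 and UHRF1 windows held 38, 34 and 28 CpG dinucleotides and the TET1 window held 9, against a median of 11 (quartiles 3 and 23) over 35116 windows of the same length. The tables gave 21 such windows for the 10 genes, because several have more than 1 start. E2F-type letters were found in 4 of these windows, those of UHRF1 (2 of its 3), EZH1 and SUZ12, and in 2.79% of all windows. CACGTG was found in 3, those of DNMT3A (2 overlapping windows that share the same letters) and TET2, and in 6.34% of all windows. All letters searched contain CG, and the windows compared were not matched for CpG content. A match is a description of the letters only.

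The libraries held 28045894 to 45807989 counts in the silencing experiment and 13806856 to 19208944 in the overexpression experiment. MUC1, the targeted gene, had 26, 10 and 13 counts in the vehicle libraries and 3, 42 and 8 in the libraries labelled DOX. The library labelled DOX replicate 2 thus goes against its label in MUC1, at counts near the floor. Its TET1, EZH2 and summed proliferation markers, given below, lay below every vehicle library, like those of the other DOX libraries. A change in MUC1 was not detectable (log2 fold change 0.12 ± 0.93 SE, 95% interval from -1.98 to 2.22, adjusted p = 0.935). DOX replicate 2 also listed 11.2% of genes at 0, against 28% to 38.1% in the other 5. In the overexpression experiment MUC1 had 25 to 31 counts in libraries labelled LNCaP and 9168 to 12622 in libraries labelled LNCaP/MUC1-C OE. The 10 luminal markers of LNCaP cells summed, in CPM (counts scaled to a common library total after TMM adjustment), to 4764 to 5164 in the LNCaP-ER vehicle libraries, 5567 to 6000 in the libraries labelled DOX, 355 to 372 in the libraries labelled LNCaP and 94.2 to 105.3 in the libraries labelled LNCaP/MUC1-C OE, where KLK3, KLK2 and FOLH1 had 0 counts in each library. With DOX 5 of the 10 luminal markers were called higher (KLK2 1.41, KLK3 1.18, KRT8 1.097, TMPRSS2 0.84 and KRT18 0.43 on the log2 scale) and 1 lower, and the part of this shift in the results below was not tested. The markers of other cells, 13 genes, summed to 8.42 to 20.7 CPM in the LNCaP-ER libraries, 146 to 154 CPM in libraries labelled LNCaP and 141 to 158 CPM in libraries labelled LNCaP/MUC1-C OE. GSTP1, a gene known for promoter methylation in LNCaP cells, had 3203 to 3233 counts in the libraries labelled LNCaP and 0 in each LNCaP-ER vehicle library. In the libraries labelled LNCaP the luminal markers were thus low though present and GSTP1 was high, which goes against their label. The libraries labelled LNCaP/MUC1-C OE had still lower luminal markers, and GSTP1 had 1529 to 2024 counts in them. The identity of the cells in both groups is not settled here. An effect of MUC1-C in this experiment thus cannot be told apart from other differences between the 2 cell populations. The part of this in the results below was not tested. In bulk samples, fewer cells of a type and less RNA per cell cannot be told apart.

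In the silencing experiment, 5 of the 10 genes fell in the libraries labelled DOX, with none higher. These were TET1, DNMT3A, DNMT3B, EZH2 and SUZ12, with log2 fold changes from -1.81 to -0.34. Of all 14683 genes tested, 27.3% were called, 14.5% lower and 12.8% higher, at an adjusted p under 0.05 (edgeR, n = 3 per group). The median log2 fold change of the 10 genes was -0.39, against -0.02 over all genes tested. The groups did not overlap, with every DOX library lower, for 7 of the 10 genes, against 23% of all genes. Without the library labelled DOX replicate 2, the same 5 genes were called lower, and without DOX replicate 3 the count was 3 (TET1, DNMT3A and EZH2).

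The de novo methyltransferase DNMT3A (chr2:25227874-25342590) was at 18.8, 16.6 and 18.4 CPM in the vehicle libraries and at 6.28, 9.53 and 7.52 CPM in the libraries labelled DOX. The groups were well apart, and DNMT3A fell by 1.21 on the log2 scale (SE 0.17, adjusted p = 0.00205). DNMT3B (chr20:32762385-32809356), the other de novo enzyme, was at 18.9, 11.2 and 9.42 CPM with vehicle and 7.28, 7.04 and 6.88 CPM with DOX. The vehicle libraries were spread, with replicate 1 highest, while the DOX libraries lay close together below all of them. DNMT3B fell by 0.90 on the log2 scale (SE 0.25, adjusted p = 0.0267), and the fall was 0.55 without vehicle replicate 1. Its adjusted p was 0.0639 without DOX replicate 1 and 0.0927 without DOX replicate 3.

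DNMT1 (chr19:10133346-10194953), the maintenance enzyme, was at 170, 161 and 149 CPM with vehicle and 142, 93.8 and 120 CPM with DOX. All 3 DOX libraries were below all vehicle libraries, but the difference of -0.43 ± 0.14 on the log2 scale did not pass (adjusted p = 0.0517), and over the alternatives on counts the adjusted p ranged from 0.0163 to 0.135. The difference was -0.26 without DOX replicate 2, the library with 42 MUC1 counts, and -0.59 without DOX replicate 1. UHRF1 (chr19:4903080-4962154) was at 31.1, 18.5 and 17.2 CPM with vehicle and 26.7, 13.7 and 21.4 CPM with DOX. The groups overlapped, and the 95% interval of the difference ran from -0.75 to 0.52 on the log2 scale.

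TET1 (chr10:68560337-68694487) had the largest change of the 10. It was at 19, 15.2 and 14.7 CPM with vehicle and 4.88, 5.22 and 3.88 CPM with DOX. Every DOX library was far below every vehicle library, a level 0.285 times that of vehicle, with a log2 fold change of -1.81 ± 0.18 (adjusted p = 0.000522). In absolute size this lay at the 97.3 percentile of all genes tested. TET2 (chr4:105145875-105279803), its paralog, was at 82.6, 85.2 and 86.4 CPM with vehicle and 77.1, 81.9 and 76.8 CPM with DOX, a small separation that did not pass (log2 fold change -0.11 ± 0.08, adjusted p = 0.371).

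Of the PRC2 genes, EZH2 (chr7:148807383-148884291), the main catalytic subunit of dividing cells, was at 65.1, 75.8 and 69.9 CPM with vehicle and 45.2, 34.7 and 37.3 CPM with DOX. All DOX libraries lay below the vehicle range, and EZH2 fell by 0.85 on the log2 scale (SE 0.12, adjusted p = 0.00206). Its paralog EZH1 (chr17:42700275-42745040) was at 35.2, 38.1 and 39.9 CPM with vehicle and 38.2, 43.3 and 34.1 CPM with DOX, with overlapping groups and a 95% interval from -0.23 to 0.29. SUZ12 (chr17:31937007-32001038) was at 172, 184 and 185 CPM with vehicle and 154, 146 and 127 CPM with DOX. It fell by 0.34 on the log2 scale (SE 0.10, adjusted p = 0.0315), a change that was not called without vehicle replicate 2, vehicle replicate 3 or DOX replicate 3 (adjusted p up to 0.122), by library size only (0.0632) or without the filter on low counts (0.0665). Its transcribed pseudogene SUZ12P1 was listed separately and was lower as well (log2 fold change -0.79 ± 0.15, adjusted p = 0.00705), and how reads shared by the copies were assigned is not stated. EED (chr11:86244753-86287615) was at 20.2, 14.6 and 13.9 CPM with vehicle and 22.4, 14 and 18.9 CPM with DOX, overlapping, with a 95% interval from -0.28 to 0.64.

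**Figure D1:**
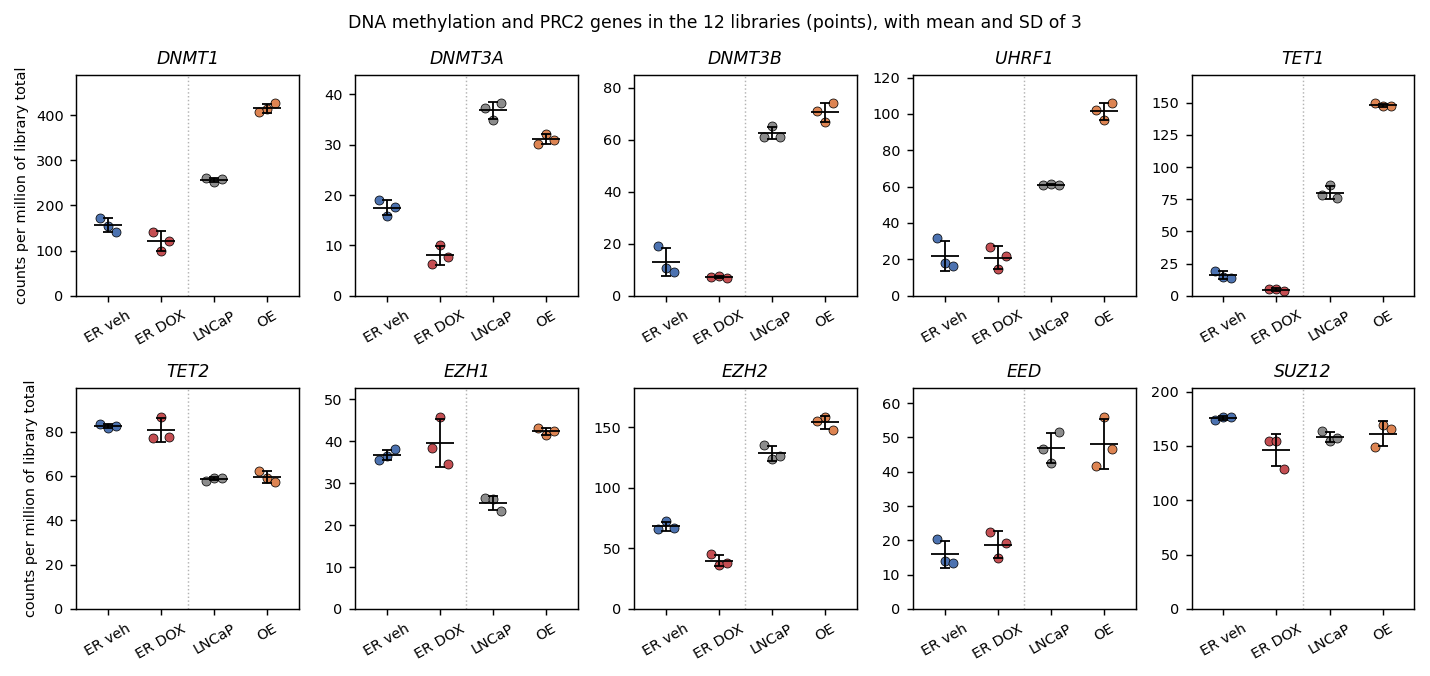
Each panel shows 1 gene, as CPM of the library total on a linear axis from 0, for LNCaP-ER vehicle (ER veh), LNCaP-ER DOX, LNCaP and LNCaP/MUC1-C OE (OE) libraries by label. Points are libraries, bars the mean and SD of 3, and the dotted line parts the experiments. TET1 drops from 14 to 19.3 in the vehicle libraries to 3.93 to 5.53 in the DOX libraries, and lies at 147 to 150 in the OE libraries.

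The direction of part of these changes depended on the scale. In the deposited TPM values of the same libraries, RN7SK alone took 24.6% to 37.7% of the total, and the median gene was higher with DOX by 0.45 on the log2(TPM + 1) scale. On that scale DNMT1, UHRF1, TET2 and SUZ12 were higher with DOX by 0.10 to 0.36, none of them called (limma). Only EED was called (higher, 0.61), 1 of 9 genes tested, against 46.1% of all genes. TET1 was not tested because it missed the filter of 1 TPM in 3 libraries. With each library centred on its median gene, an alternative chosen after seeing the data, DNMT1, UHRF1, TET2 and SUZ12 were again lower. DNMT3A (-0.85), DNMT3B (-0.66) and EZH2 (-0.75) were called lower, 3 of 9 genes tested. The 35.9% of all 11404 genes called on this scale were 2061 lower and 2029 higher. The falls given above are therefore falls relative to most other genes.

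In the overexpression experiment, 8 of the 10 genes were higher in the libraries labelled LNCaP/MUC1-C OE and none lower, with changes of 0.17 to 1.04 on the log2 scale. Here 67.3% of the 13836 genes tested were called, 33.2% higher and 34.1% lower. The median log2 fold change was 0.37 for the 10 genes and -0.01 for all genes tested. The same 8 genes had no overlap between groups, higher in every OE library, against 34.4% of all genes (35.9% were lower without overlap, 70.3% in either direction). Scaled by library size only, the median of all genes moved to -0.16, and of the 13836 genes 3050 were called higher and 6388 lower. At that setting 6 of the 10 were called higher and DNMT3A lower (-0.25, adjusted p = 0.00378), while SUZ12 (0.03) and TET2 (0.02) lost their calls.

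TET1 again had the largest change. It was at 74.4, 81.5 and 72.1 CPM in the libraries labelled LNCaP and 158, 156 and 155 CPM in the OE libraries, which were all about level and well above the others (log2 fold change 1.04 ± 0.05, adjusted p = 1.55e-11). TET2 was at 54.8, 56.2 and 56.1 CPM against 66.1, 62.2 and 60.3 CPM, a narrow separation with a log2 fold change of 0.17 ± 0.06 (adjusted p = 0.013), and it was not called without LNCaP replicate 1.

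DNMT1 was at 246, 240 and 245 CPM in libraries labelled LNCaP and 430, 437 and 448 CPM in OE libraries, 1.80 times as high (log2 fold change 0.85 ± 0.04, adjusted p = 1.61e-11). UHRF1, its partner at the replication fork, was at 57.8, 58.4 and 57.7 CPM against 108, 102 and 111 CPM, 1.85 times as high (adjusted p = 1.35e-10). Both rose by like amounts, and replicates lay close together in either group. DNMT3B was at 57.9, 62.1 and 58 CPM against 75, 70.6 and 77.8 CPM (log2 fold change 0.33 ± 0.06, adjusted p = 7.86e-05). DNMT3A was at 35.4, 33.3 and 36.3 CPM against 32, 34 and 32.5 CPM, with overlapping groups and a 95% interval from -0.24 to 0.05. The difference between DNMT3A and DNMT3B is given below as their ratio.

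Among the PRC2 genes, EZH1 was at 25, 24.9 and 22.2 CPM in libraries labelled LNCaP and 45.7, 43.8 and 44.6 CPM in OE libraries, 1.86 times as high (log2 fold change 0.90 ± 0.07, adjusted p = 4.22e-09). EZH2 was at 128, 118 and 120 CPM against 165, 168 and 156 CPM (log2 fold change 0.42 ± 0.05, adjusted p = 1.18e-06). Both paralogs thus rose, with no overlap between groups. SUZ12 was at 155, 147 and 149 CPM against 158, 179 and 174 CPM, a narrow separation (0.18 ± 0.05, adjusted p = 0.00611). EED was at 44.2, 40.5 and 48.8 CPM against 44, 59.2 and 49.1 CPM, with overlapping groups (0.19 ± 0.10, adjusted p = 0.111), and it was called higher without LNCaP replicate 3 or OE replicate 1.

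**Figure D2:**
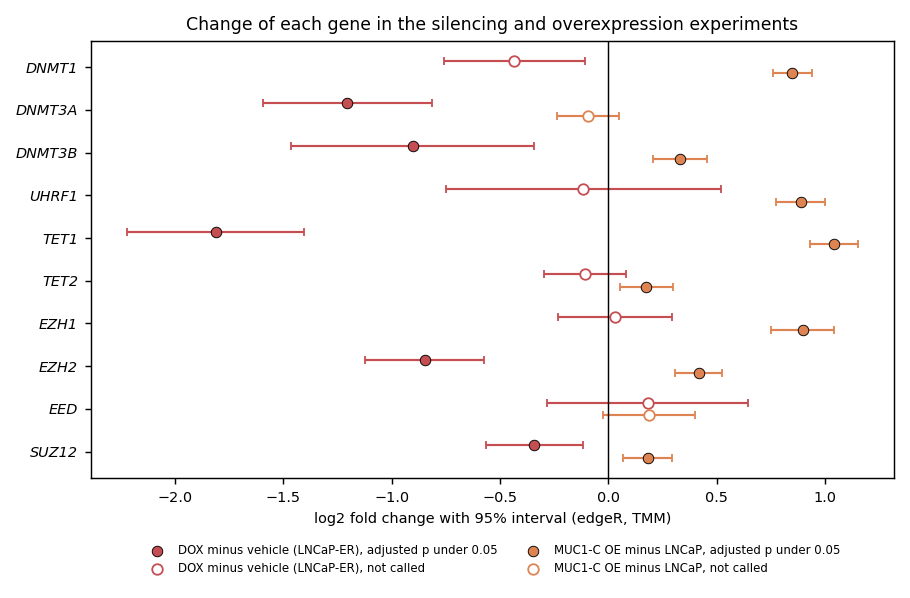
The horizontal axis is the log2 fold change from edgeR with its 95% interval, for DOX minus vehicle (red) and MUC1-C OE minus LNCaP (orange). Filled points passed an adjusted p of 0.05. TET1 lies farthest from 0 in both experiments, at -1.81 and 1.04, and EED is not called in either.

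Side by side, TET1, DNMT3B, EZH2 and SUZ12 were called lower in the silencing experiment and higher in the overexpression experiment. These are 4 of the 5 genes called in the first and 4 of the 8 called in the second, and of the 11682 genes tested in both experiments 7.94% had that pattern. The SUZ12 calls have the limits given above in both experiments. DNMT3A was called in the silencing experiment alone and DNMT1, UHRF1, TET2 and EZH1 in the overexpression experiment alone, with no test of the difference between experiments. The experiments shared no library.

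Levels over the 4 groups were set side by side as CPM of the library total, with no test, since the groups come from 2 tables with different gene lists. The experiments also differed in their luminal markers and GSTP1, as given above. Steps between the LNCaP-ER groups and the others thus cannot be told apart from differences between experiments or cells. For DNMT1, DNMT3B, UHRF1, TET1 and EZH2 the order was the same, from LNCaP-ER DOX through LNCaP-ER vehicle and LNCaP to LNCaP/MUC1-C OE, and of these only UHRF1 had neighbours that overlapped (DOX and vehicle). As a ratio of the highest to the lowest mean TET1 showed the widest range, with means of 4.78 ± 0.80, 16 ± 2.87, 80.1 ± 4.99 and 148 ± 1.29 (SD, n = 3) in that order. DNMT3B was at 7.24 ± 0.25, 13 ± 5.42, 62.5 ± 2.39 and 70.6 ± 3.58. DNMT1 was at 121 ± 21.4, 156 ± 15, 257 ± 4.31 and 415 ± 10.1, and UHRF1 at 21 ± 6.17, 21.9 ± 8.35, 61.1 ± 0.28 and 102 ± 4.64. EZH2 was at 39.9 ± 4.70, 68.4 ± 3.69, 129 ± 5.83 and 154 ± 5.57. DNMT3A was highest in libraries labelled LNCaP (36.9 ± 1.69) and lowest in DOX (8 ± 1.93). TET2 stood the other way round, at 82.5 ± 0.97 in vehicle and 80.6 ± 5.35 in DOX, which overlapped, above 58.7 ± 0.65 in LNCaP and 59.5 ± 2.62 in OE, which overlapped too. EZH1 was lowest in LNCaP (25.3 ± 1.64), and its other 3 groups, from 36.7 to 42.4, overlapped with their neighbours. EED had 15.9 and 18.8 in the LNCaP-ER groups and 46.9 and 48.1 in the others, with overlap inside each pair. By the same ratio SUZ12 varied least, from 146 ± 14.7 in DOX to 176 ± 1.70 in vehicle, with the groups of the overexpression experiment between them.

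Levels can be compared between genes only per length, as in the deposited TPM. In the vehicle libraries SUZ12 was highest (22.9 to 28.3 TPM), followed by DNMT1 (15 to 22.8) and EZH2 (13.2 to 16.4), whose ranges overlapped each other. EZH1 (4.72 to 5.54), EED (3.22 to 6.25), TET2 (2.99 to 3.81), UHRF1 (1.83 to 4.39), DNMT3B (1.13 to 3.02) and DNMT3A (1.65 to 2.25) followed, each overlapping with the gene before it except EZH1. TET1 had the lowest mean (0.82 to 1.42), wholly below DNMT3A though not below DNMT3B. In means, EZH2 stood at 15.3 ± 1.78 and EZH1 at 5.11 ± 0.41 TPM with vehicle, and at 12.5 ± 2.27 and 7.90 ± 2.52 TPM with DOX.

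**Figure D3:**
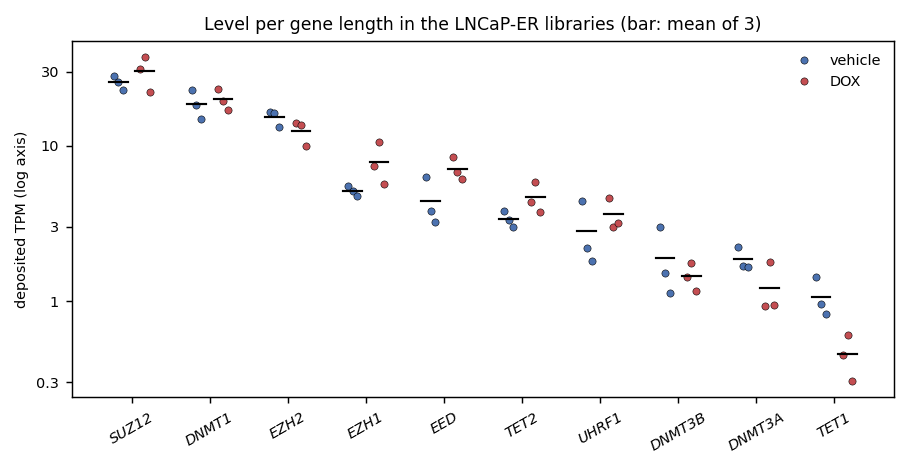
The deposited TPM on a log axis for each gene in vehicle (blue) and DOX (red) LNCaP-ER libraries, ordered by the vehicle mean, with points for libraries and a bar for the mean of 3. SUZ12, DNMT1 and EZH2 lie at 9.92 or above, and TET1 has the lowest mean in both groups.

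Ratios of related genes within a library do not depend on how libraries are scaled, and these ratios of counts were not corrected for gene length. The EZH2 to EZH1 ratio was 1.75 to 1.99 in the vehicle libraries and 0.80 to 1.18 in the DOX libraries, with geometric means of 1.86 and 1.01, so the groups did not overlap. In the overexpression experiment it was 4.74 to 5.40 with LNCaP and 3.49 to 3.84 with OE, so that it was lower there as well although both genes rose. The TET2 to TET1 ratio was 4.34 to 5.87 with vehicle and 15.7 to 19.8 with DOX, and 0.69 to 0.78 with LNCaP against 0.39 to 0.42 with OE. These 4 differences had no overlap and an exact two-sided permutation p of 0.1, the smallest that 3 against 3 libraries allow, and an adjusted p of 0.16 over 8 ratio tests. The DNMT3A to DNMT3B ratio separated in the overexpression experiment only (0.54 to 0.63 against 0.42 to 0.48, exact permutation p = 0.1, adjusted p = 0.16) and overlapped in the silencing experiment (0.99 to 1.95 against 0.86 to 1.35, exact permutation p = 0.4). The DNMT1 to UHRF1 ratio overlapped in both (geometric means 7.44 and 5.88 in the silencing experiment, 4.20 and 4.09 in the overexpression experiment).

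**Figure D4:**
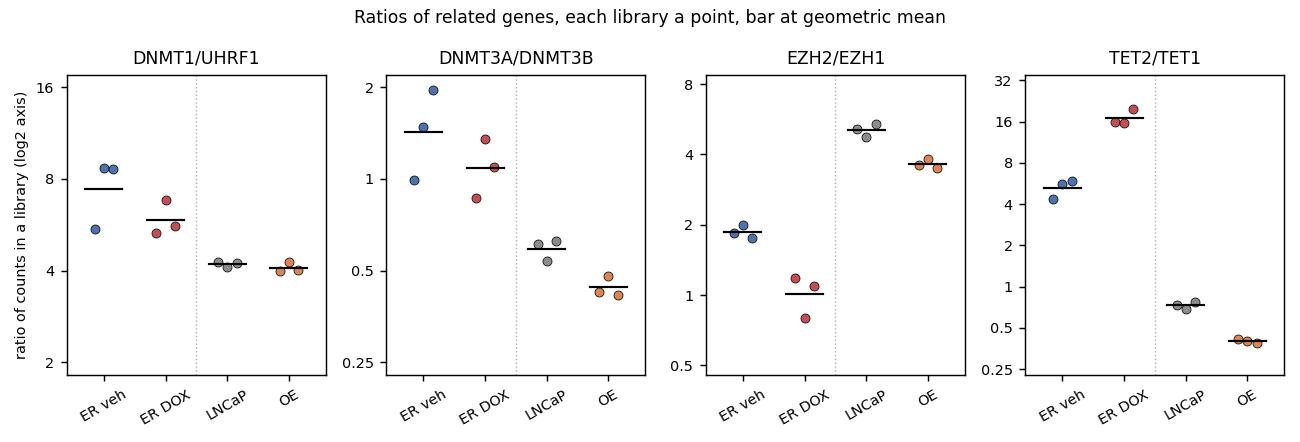
Each panel shows the ratio of the counts of 2 genes within a library, on a log2 axis, by group label (ER veh, ER DOX, LNCaP, OE), with points for libraries and a bar at the geometric mean. The geometric mean of TET2/TET1 is 5.23 with vehicle and 17 with DOX, and that of EZH2/EZH1 is 1.86 with vehicle and 1.01 with DOX.

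Other genes of the same machinery were read from lists written from general knowledge, to be set beside the shares of all genes called (14.5% lower and 12.8% higher with DOX, 34.1% lower and 33.2% higher with MUC1-C OE). List counts on log2(TPM + 1) are to be set beside 254 genes lower and 4998 higher of 11404 tested there. Those by library size only with MUC1-C OE are to be set beside 6388 lower and 3050 higher of 13836. Where 5 or fewer genes of a list moved in a direction, those named beyond the 3 with the smallest p were named after their values were seen. Of 31 further genes of DNA methylation tested in the silencing experiment, 12 were lower and 1 (ZBTB4, 0.29) higher, with a median log2 fold change of -0.23, while on log2(TPM + 1) none was called lower and 7 higher. Those with the smallest p were TET3, the third TET oxidase (-0.58 ± 0.09, adjusted p = 0.00238), and the histone methyltransferase EHMT2 (-0.51 ± 0.09). This count of 13 rested on single libraries, and was 2 without DOX replicate 3, 3 without vehicle replicate 2 or 3, and 8 without vehicle replicate 1 or DOX replicate 1. Of 32 tested with MUC1-C OE, 14 were higher and 8 lower (11 and 11 by library size only), led by the DNA ligase LIG1 (1.08 ± 0.06), the RNA methyltransferase TRDMT1 (1.44 ± 0.09) and CDCA7, a partner of the remodeller HELLS (0.74 ± 0.05).

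Of 10 other PRC2 subunits tested, 4 fell and 1 rose in the silencing experiment (LCORL -0.86, JARID2 -0.50, EPOP -0.47, RBBP4 -0.46 and LCOR 0.54), and the count of 5 was 3 without vehicle replicate 2, vehicle replicate 3 or DOX replicate 3, while on log2(TPM + 1) none was lower and 2 higher. With MUC1-C OE 6 rose and 1 fell (PHF1, -0.56), and by library size only 5 rose and 3 fell. Among those that rose were JARID2, a DNA-binding cofactor of the complex (0.88 ± 0.06, 55.6 to 102 CPM), MTF2 (0.57 ± 0.05) and RBBP4, a histone chaperone (0.43 ± 0.04). Of 24 PRC1 subunits, 7 fell and 2 rose with DOX, including PHC3 (-0.83) and SCML2 (-0.79) among the first and CBX6 (0.55) and L3MBTL2 (0.51) as the second, and the count of 9 was 5 without vehicle replicate 3 or DOX replicate 3. On log2(TPM + 1) none of this list was lower and 8 higher, the direction of most genes called on that scale. With MUC1-C OE 9 rose, including the ubiquitin ligase RNF2 (0.64) and PHC2 (0.54), and 5 fell (BCORL1 -0.43, CBX7 -0.36, PHC3 -0.29, PCGF5 -0.24 and CBX6 -0.20), a balance that turned by library size only, where 7 were higher and 11 lower. Among factors that oppose Polycomb, 7 of 16 fell and none rose with DOX, led by NSD2 (-0.79), KMT2C (-0.57) and the H3K27 demethylase KDM6A (-0.58), whereas on log2(TPM + 1) none was lower and 3 higher. Of 17 tested with MUC1-C OE, 10 rose, led by ASH1L (0.57), KMT2B (0.63) and KMT2A (0.51), and 3 fell (KDM6B -0.59, NSD3 -0.25 and CREBBP -0.12), and the count of 13 was 8 without LNCaP replicate 3. By library size only the balance turned, with 4 higher and 6 lower.

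Proliferation markers are given beside the 10 genes because DNMT1, UHRF1 and EZH2 are known to be expressed with cell division. In the silencing experiment 14 of 24 fell and none rose (median log2 fold change -0.80), led by CCNB2 (-1.46 ± 0.19), FOXM1 (-1.19 ± 0.19) and TOP2A (-1.47 ± 0.24), and on log2(TPM + 1) 8 were lower and 1 higher. Their sum was 3701, 2833 and 2735 CPM in the vehicle libraries and 2317, 1216 and 1779 CPM in the DOX libraries, without overlap. With MUC1-C OE 15 of 24 rose and FOXM1 fell (-0.36), with a median of 0.22 and sums of 7264 to 7315 CPM against 8344 to 8642 CPM, but by library size only 11 were higher and 7 lower. The part of proliferation in the changes of the 10 genes was not tested. Of the E2F and MYC regulators, 5 of 15 fell and none rose with DOX, namely RBL1 (-1.78 ± 0.18), E2F7 (-1.20 ± 0.24), RBL2 (-0.50 ± 0.11), E2F4 (-0.50) and MYC (-0.59, adjusted p = 0.0491), and the count was 3 without vehicle replicate 2 or 3, while on log2(TPM + 1) 1 was lower and 1 higher. With MUC1-C OE 7 of 16 rose, among them E2F2 (0.52 ± 0.06) and E2F8 (0.51 ± 0.09), and 5 fell (RB1, the restrainer of E2F, -0.82 ± 0.05, and MYCN, E2F5, RBL2 and TFDP2), and the count of 12 was 6 (3 in each direction) without LNCaP replicate 1. The balance turned by library size only, with 2 higher and 6 lower, and was 4 and 4 among genes with at least 10 counts in every library.

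Lists of genes known as targets of these enzymes were read in the same way. Of 14 genes known as EZH2-repressed that could be tested with DOX, 4 rose, 1 fell and 9 did not pass. CDKN1A, an inhibitor of cyclin-dependent kinases, rose from 205 ± 2.34 to 646 ± 126 CPM (log2 fold change 1.65 ± 0.14, adjusted p = 0.000332), and CDKN2B, another such inhibitor, from 1.67 to 7.63 CPM (2.21 ± 0.38). FOXC1 (0.44 to 2.26 CPM) and SLIT2 (0.24 to 1.03 CPM), named after their values were seen, rose from low levels, and DAB2IP fell (-0.78 ± 0.11). Without the library labelled DOX replicate 2 this count of 5 was 9, with 5 higher and 4 lower. With MUC1-C OE 4 of 18 rose (ADAMTS1 1.63, TIMP3 0.73, CDKN2A 0.36 and WNT5A 0.22) and 10 fell, including CDKN1A (121 to 21.1 CPM, -2.52 ± 0.06), the epithelial cadherin CDH1 (21.7 to 0.13 CPM) and SFRP1 (27.7 to 2.16 CPM). CDH1 is a marker of epithelial cells as well, and fell together with the luminal markers described above.

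Of 10 testable genes known as promoter-methylated in prostate cancer, 1 rose with DOX (AOX1, 0.15 to 1.37 CPM, named after its values were seen) and 9 did not pass, among them APC (0.28 ± 0.11, adjusted p = 0.0807), MGMT (0.22, adjusted p = 0.19) and RASSF1 (0.26, adjusted p = 0.2). The count of 1 was 2 without DOX replicate 1, without DOX replicate 2, by library size only or without the filter on low counts, 3 on log2(TPM + 1), and 0 among genes with at least 10 counts in every library. With MUC1-C OE 3 of 12 rose (CAV1 from 13 to 21.5 CPM, RARB 0.21 and CCND2 0.16) and 4 fell (GSTP1 from 165 to 117 CPM, ABCB1 from 22.9 to 11 CPM, EDNRB from 1.65 to 0.19 CPM and DAPK1 -0.36), and by library size only 1 rose and 4 fell. Of 35 germline genes known to be silenced by methylation, 10 could be tested with DOX, of which 5 fell and 1, MAGEA10, rose (4.41 to 8.59 CPM, 0.96 ± 0.23, adjusted p = 0.0156). The 5 were TDRD1 (-1.31 ± 0.24), MAGEC2 (-1.35 ± 0.39), BRDT (-1.03), PRAME (-0.45) and MAGEA12 (-0.38), and the count of 6 was 1 without vehicle replicate 3, 2 without vehicle replicate 2, and 3 without vehicle replicate 1, DOX replicate 1 or DOX replicate 3. It was also 3 by library size only (2 lower, 1 higher). On log2(TPM + 1) none was lower and 3 higher, the direction of most genes called on that scale. With MUC1-C OE 7 of 8 fell and none rose, including MAGEA3 (42.3 to 0.22 CPM), MAGEA10 (3.75 to 0.11 CPM) and TEX15 (62.5 to 55.9 CPM), and the count was 2 among genes with at least 10 counts in every library. Some MAGEA genes are near-identical copies, so the split of reads between such copies is uncertain. DNA methylation and H3K27 methylation themselves were not measured here.

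**Figure D5:**
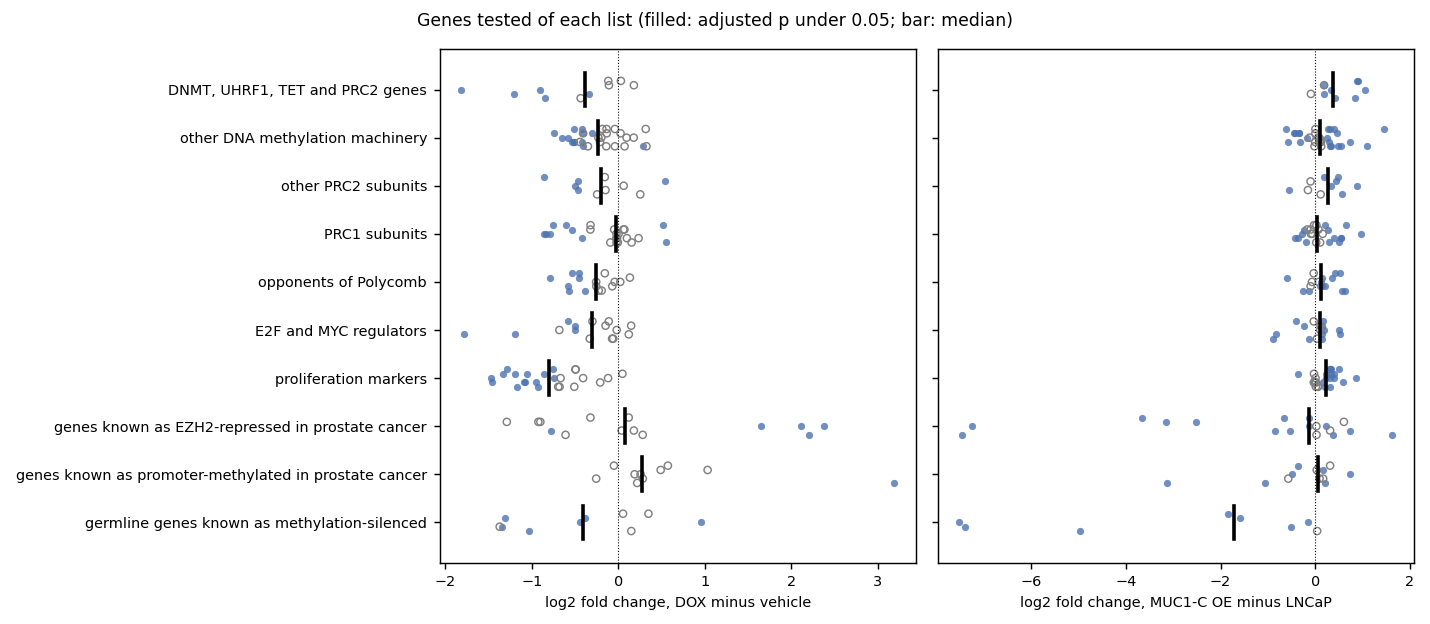
Log2 fold changes of the tested genes of each list, DOX minus vehicle on the left and MUC1-C OE minus LNCaP on the right, with separate horizontal scales. Each point is a gene, filled where the adjusted p was under 0.05, and the bar is the median, which for the 10 genes is -0.39 and 0.37 and for proliferation markers -0.80 and 0.22.

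The genes most like each of the 10 in pattern were taken by Pearson's r of log2 CPM, centred within each experiment, over the 12 libraries and 11682 genes, as a description in which treated and control libraries form separate groups. For TET1 these were RFC3 (r = 0.99), GJC1 and SPTSSA, and for EZH2 they included STAG1 (r = 0.99) and ZNF614. DNMT1 was most like DNA2 (r = 0.99), DTL and GPATCH8, and UHRF1 most like CPSF6 (r = 0.99), RNPC3 and NOP56. DNMT3A was nearest to ASAP2 (r = 0.99), ISYNA1 and KDELC1, and DNMT3B to ZNF302 (r = 0.95), ZNF649 and NT5DC2. TET2 was nearest to PSAT1 (r = 0.98), ADM2 and GARS, EZH1 to ADK (r = 0.99), TMEM101 and MYO1D, SUZ12 to PMS1 (r = 0.98), WDR36 and ZCCHC4, and EED to API5 (r = 0.96), SNHG21 and DNTTIP2. The nearest neighbours differed for each of the 10 genes, which does not make their patterns distinct. Among the 10 genes themselves r ran from -0.39 (DNMT3A and EED) to 0.93 (TET1 and EZH2), with 0.91 for EZH2 and SUZ12 and 0.86 for DNMT1 and UHRF1.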

How the data were processed

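RNA-Seq libraries of LNCaP-ER/tet-MUC1shRNA cells and of cells labelled LNCaP were prepared by the authors with a stranded mRNA kit. Submitters' processing notes name STAR, DESeq2 and GRCh38/hg38, without versions. The authors deposited whole-number counts per gene symbol without normalization for both experiments, and deposited TPM values for the silencing experiment. How gene lengths were set is not given in the sources used here. The overexpression table also held 12 columns of other cell lines, which were not used. Groups were taken from the sample labels.

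Counts were tested with edgeR 4.0.16 in R 4.3.3 (quasi-likelihood test, TMM, default filter on low counts, robust dispersions, two-sided, Benjamini-Hochberg over all genes tested), with 3 against 3 libraries per experiment and an adjusted p under 0.05. CPM are TMM-scaled unless the library total is named. Errors after ± are SE for log2 fold changes and SD for levels. TPM were tested with limma 3.58.1 after adding 1, or 0.1, with genes at 1 TPM or more in 3 libraries, and DESeq2 1.42.0 was an alternative. The scripts were tested on simulated data. The members and gene lists were chosen with earlier results of these data known, and list counts carry no set test. List genes named are the 3 with the smallest p per list and experiment at a mean of 1 CPM or more, besides those said to be named later. Some genes that the rules for naming cover are not reported here. Promoter sequences and coordinates are from RefSeq, GRCh38.p14, matched by symbol for all 10 genes. Counts carry no molecular identifiers. The SE, intervals and p-values from edgeR rest on the spread between replicate libraries. Replicates of each group differed by more than sampling noise. Alternatives were other scalings and filters, a fold threshold, the replicate number as a block, and each library left out.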

Additional observations from a re-analysis of the deposited data

How the results depend on the processing

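In the silencing experiment 4006 genes and 5 of the 10 members were called. With a threshold of 1 on the absolute log2 fold change added, the counts were 988 and 2 there, and 1917 and 1 in the overexpression experiment (from 9312 and 8). Leaving out 1 library gave 2002 to 5243 genes and 3 to 5 members in the silencing experiment, with 2200 without vehicle replicate 2, 2002 without vehicle replicate 3 and 2067 without DOX replicate 3, and 8486 to 9512 genes and 7 to 9 members in the overexpression experiment. Over all genes the replicate numbers showed no pairing of libraries (correlations of deviations -0.07 to 0.09 in the silencing and -0.15 to -0.03 in the overexpression experiment). Whether libraries of like number were cultured or prepared together is not settled by this. With the replicate number as a block, 4226 genes and 6 members were called in the silencing experiment, with DNMT1 added (adjusted p = 0.0163). In the overexpression experiment the block gave 8965 and 8. DESeq2 called 4624 genes and 6 members in the silencing experiment, with DNMT1 added (adjusted p = 0.0378), and 8605 and 8 in the overexpression experiment. DNMT1 was also called by edgeR without the filter on low counts (0.0438), with at least 10 counts in every library (0.0492) and without DOX replicate 1 (0.0218). It was not called in the other alternatives on counts.

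On TPM (limma), 1 of 9 members tested was called with log2(TPM + 1) and 1 of 9 with log2(TPM + 0.1). At these settings 46.1% and 46.3% of all genes were called. Without the filter 0 of 10 members were called, against 5.48% of all genes (1399 genes). There 1 member had an unadjusted p under 0.05, while edgeR on counts called 5. With centring on the median gene, chosen after seeing the data, 3 of 9 members tested were called, all lower. Of all 11404 genes 35.9% were called there, 2061 lower and 2029 higher. On log2(TPM + 1), with or without the filter, DNMT1 reversed to 0.10, UHRF1 to 0.32, TET2 to 0.36 and SUZ12 to 0.21, and with 0.1 added to 0.10, 0.43, 0.44 and 0.21. Leaving out 1 library moved UHRF1 between -0.35 and 0.20 and EZH1 between -0.027 and 0.11 in the silencing experiment. Higher genes made up 46.8% of the called genes in the silencing experiment, 59.6% by library size only and 95.2% on log2(TPM + 1), and 49.4% in the overexpression experiment, 32.3% by library size only. In place of 14, the proliferation markers called with DOX were 7 without the filter on low counts, 17 with DESeq2 and 21 with the replicate block. Leaving out 1 library gave 10 to 20. The causes were not tested. No member of the overexpression experiment reversed under the alternatives run. With 3 libraries per group and their spread, the silencing experiment leaves wide intervals for UHRF1 and EED.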
